A study of Mus musculus with 556 samples.

Results

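Lamina contacts of single mouse 2-cell blastomeres were set against those of single zygotes, both mapped with Dam-lamin B1. The comparison was defined by column name in the deposited table of single cells: 47 columns are 2-cell blastomeres with Dam-lamin B1 and 19 are zygotes with it, together 66 of the 512 cells in the table. Cells that received Dam without lamin B1 served as controls, 45 blastomeres at the 2-cell stage and 46 zygotes. All 4 groups have the strain label C57BL/6 female x CAST/EiJ male, while the protocol text names F1 (CBAxC57BL/6J) females for the hybrid crosses. Messenger RNA for Dam-lamin B1 or for Dam, each fused to an auxin-inducible degron (AID), was injected into the cytoplasm of intact embryos together with mRNA for TIR1, the plant protein that lets auxin trigger the degradation, and for a membrane-bound EGFP. The 2-cell group received 10 ng/µl of Dam-lamin B1 mRNA, or 40 ng/µl of Dam mRNA, as late zygotes 27 to 28 h after hCG, the hormone that triggers ovulation, and was kept in auxin until 42 h. Auxin was then absent until 48 to 50 h. The zygotes received 5 ng/µl of Dam-lamin B1 mRNA, or 20 ng/µl of Dam mRNA, at 21 h and were without auxin for 6 to 8 h, the same length of time as the 2-cell embryos. The mRNA dose therefore differed between the stages for both constructs, and stage and dose cannot be told apart. Other stages with Dam-lamin B1 are given for orientation only: 56 oocytes of strain C57BL/6 that received 5 ng/µl, 41 cells of 8-cell embryos of the same cross as the zygotes that received 20 ng/µl at 46 to 48 h and were without auxin from 66 h, and 10 embryonic stem (ES) cells with the strain label 129/Sv female x CAST/EiJ male, whose labels name no dose. Stage and dose cannot be told apart along that series either.

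The nuclear lamina is a meshwork of lamin proteins under the inner nuclear membrane. In most mammalian cells, long stretches of gene-poor, late-replicating and mostly silent chromatin touch it and are called lamina-associated domains (LADs). In DamID the bacterial adenine methyltransferase Dam is tethered to a protein, here lamin B1, and methylates the A of GATC wherever that protein comes near DNA. Dam that is tethered to nothing methylates open chromatin. The first 2 cell cycles of the mouse hold the change from the zygote, in which the parental genomes are still in separate pronuclei, to the 2-cell embryo, in which they share 1 nucleus and the major wave of embryonic transcription begins.

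For each cell the table gives OE, the observed reads divided by those expected, in bins of 100 kb on the 19 autosomes, build mm10, and 24022 bins have a value. An OE of 1 is the expected level, and a bin with an OE of at least 1 in a cell is called in contact in that cell. Depth was recovered from the steps between the OE values. It ran from 28375 to 116873 counts with a median of 43248 in the 2-cell group, and from 28425 to 223104 with a median of 41808 in the zygotes. Each zygote is an embryo of its own, but the labels name no embryo, mother or day for a blastomere. The 47 blastomeres come from at least 24 embryos, and which share an embryo is not known here, so the 2-cell group counts as 1 sample. Stages are therefore described by the mean, the SD over cells and the overlap of cells, with no test between them and no p-value. DamID reads no RNA, so the labelled stages could not be checked against marker genes. The construct could be checked against the deposited LADs of the blastocyst, from its inner cell mass (ICM) and trophectoderm (TE). OE inside LADs exceeded that outside in 46 of 47 blastomeres and in 19 of 19 zygotes with Dam-lamin B1. With Dam the mean log2 ratio was below 0 at both stages, -0.92 in blastomeres and -0.74 in zygotes.

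A block of 13 blastomeres, those numbered 24 to 36, stood apart from the other 34. Their log2 ratio of OE inside over outside LADs ran from -0.03 to 0.42, against 0.10 to 1.38 with a mean of 0.98 ± 0.28 in the other 34, so the ranges overlapped. Their profiles correlated with the mean 2-cell Dam profile at r = 0.204 to 0.398, against r = -0.0577 to 0.158 in the other 34 (24022 bins that share the genome's base composition). They also correlated with each other more closely than the other blastomeres did, with a mean r of 0.389 ± 0.0465 over 78 pairs against 0.251 ± 0.0819 over 561 pairs. The labels give no day or run for the block. Summary values without it are given beside the main results.

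The mean contact maps of the 2-cell stage and of zygotes correlated only weakly. Across 24022 bins the mean OE profiles correlated at r = 0.253, and at r = 0.232 without the 13 blastomeres, whereas the Dam profiles of the same stages correlated at r = 0.875. The Dam groups had more counts per cell, with medians of 56825 in blastomeres and 94286 in zygotes, and more zygotes, 46 against 19. They were not thinned to the same cells and depth. The part of cell number and depth in the gap between the constructs, here and below, was not tested. Of 23834 bins with enough signal, 2820 (11.8%) were at least 2-fold higher at the 2-cell stage and 3843 (16.1%) at least 2-fold lower. With Dam, 62 of 23853 bins (0.260%) were at least 2-fold higher and 134 (0.562%) at least 2-fold lower. Without the 13 blastomeres, 13.6% of bins were at least 2-fold higher and 20.8% lower.

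Counted as shares of cells, the maps differed as well. Bins that were in contact in 50% or more of the cells numbered 6796 at the 2-cell stage and 6786 in zygotes. They made up 28.3% and 28.2% of all bins. Of them 2391 were the same, 35.2% of either set, somewhat above those shares of all bins. With Dam, 6454 such bins were shared, which is 84.4% of the 2-cell set and 69.0% of the zygote set. At a limit of 80% of the cells they numbered 765 at the 2-cell stage and 416 in zygotes, 3.18% and 1.73% of all bins. In common were 25, which is 3.27% of the 2-cell set and 6.01% of the zygote set. With Dam 543 bins were shared at that limit, 40.3% of the 2-cell set and 51.6% of the zygote set. A bin was called gained when it was in contact in under 50% of zygotes and at least 50% of blastomeres. It was called lost when it was in contact in at least 50% of zygotes and under 50% of blastomeres. Both calls also needed a difference of at least 25 percentage points. By this rule 3025 of 24022 bins (12.6%) were gained and 3152 (13.1%) lost, against 221 (0.920%) gained and 661 (2.75%) lost with Dam. Without the 13 blastomeres the shares were 12.9% gained and 13.9% lost. With 19 blastomeres and 19 zygotes thinned to the same depth they were 13.6% gained and 9.53% lost, so which of them was larger depended on the setting. Bins in contact in 50% or more of the cells were thus about as many at both stages, and those at 80% were more at the 2-cell stage. At either limit most were not shared, and at 80% this also held for the 2-cell set with Dam.

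The maps differed in gene deserts. Zygotes contacted the stretches of LADs far from any gene most strongly, and 2-cell blastomeres contacted the LAD bins on and near genes more. LAD bins over 1 Mb from the nearest protein-coding gene had a mean OE of 0.868 ± 0.0987 in blastomeres and 1.74 ± 0.223 in zygotes (SD over 47 and 19 cells). Of the 389 such bins, 219 (56.3%) were at least 2-fold lower at the 2-cell stage and 1 (0.257%) was higher. At 500 kb to 1 Mb from a gene, mean OE was 0.958 ± 0.0988 in blastomeres and 1.57 ± 0.177 in zygotes, and 38.7% of 946 bins were at least 2-fold lower. LAD bins that overlap a coding gene went the other way, at 1.25 ± 0.0988 in blastomeres and 1.12 ± 0.0428 in zygotes. Of those 6178 bins, 16.0% were at least 2-fold higher and 10.9% lower.

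Within each cell, a gene desert contrast was taken as the log2 ratio of mean OE in LAD bins over 500 kb from a coding gene to mean OE in LAD bins that overlap one. It was -0.42 ± 0.13 in the 47 blastomeres, from -0.79 to -0.19, and 0.53 ± 0.16 in the 19 zygotes, from 0.21 to 0.76. All 47 blastomeres lay below 0 and all 19 zygotes above 0, so the groups did not overlap, and the difference was -0.95, several times the SD of either group. The 13 blastomeres that stand apart ran from -0.61 to -0.21, within the range of the other 34, and without them the difference was -0.97. With Dam both stages were on the same side, at -0.64 ± 0.17 in blastomeres and -0.68 ± 0.22 in zygotes. Along development the mean with Dam-lamin B1 was -0.07 ± 0.22 in 56 oocytes, 0.53 in zygotes, -0.42 at the 2-cell stage and -0.61 ± 0.19 in 41 cells of 8-cell embryos, and it was -0.05 ± 0.17 in 10 ES cells. The dose differed along this series as given above. The zygote mean was the only one of these 5 above 0.

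**Figure D1:**
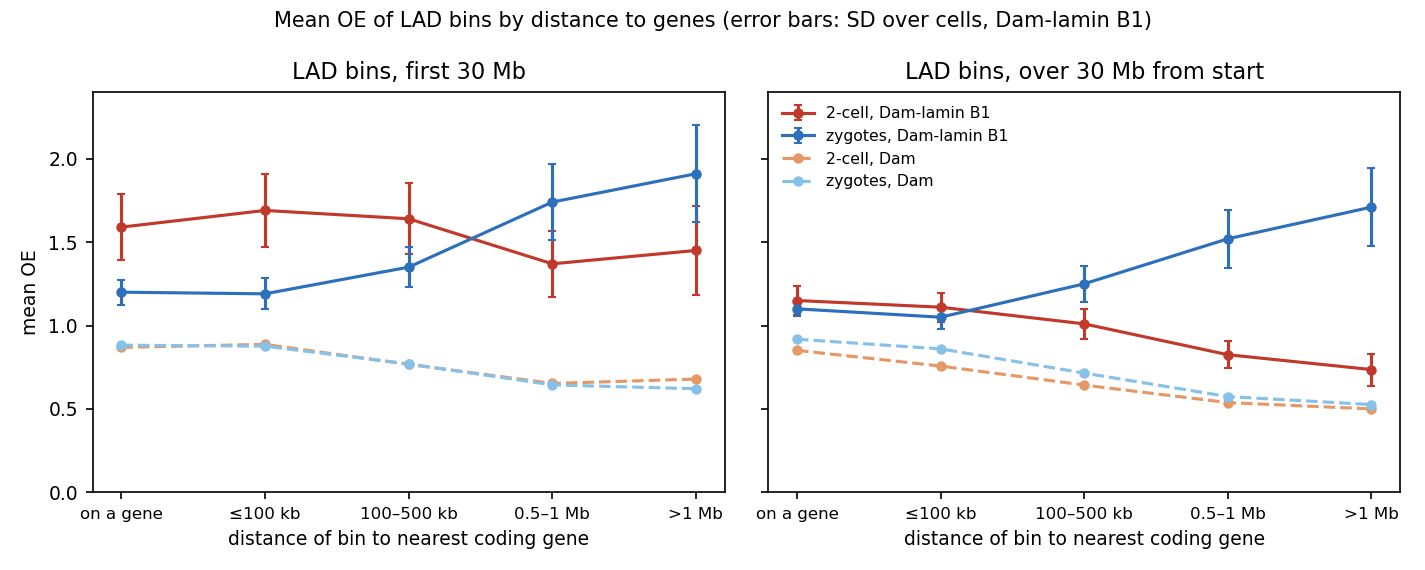
Mean OE (vertical axis, ratio of observed to expected) of LAD bins by their distance to the nearest protein-coding gene, for bins in the first 30 Mb of a chromosome (left) and farther along (right). Red is 2-cell and blue zygote with Dam-lamin B1, with error bars of 1 SD over 47 and 19 cells, and dashed lines are the same stages with Dam. Over 30 Mb from the start, bins over 1 Mb from genes had an OE of 0.736 in blastomeres and 1.71 in zygotes, while both Dam lines fell together, to 0.500 in blastomeres and 0.526 in zygotes.

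The gene-desert difference was present along the whole chromosome. In the first 30 Mb from the centromere the contrast was -0.21 ± 0.13 in blastomeres and 0.55 ± 0.15 in zygotes. Beyond 30 Mb it was -0.52 ± 0.16 in blastomeres and 0.52 ± 0.17 in zygotes. Of the lost bins, 25.3% lay over 500 kb from a coding gene, against 1.02% of gained bins and 7.48% of all bins. Only 41.7% of lost bins overlapped a coding gene, against 63.0% of gained bins and 64.9% of all bins. Their Dam signal was also low at both stages, 0.682 in blastomeres and 0.705 in zygotes, against 1.03 in blastomeres and 1.09 in zygotes over the gained bins. The part of chromatin accessibility in the loss was not tested.

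**Figure D2:**
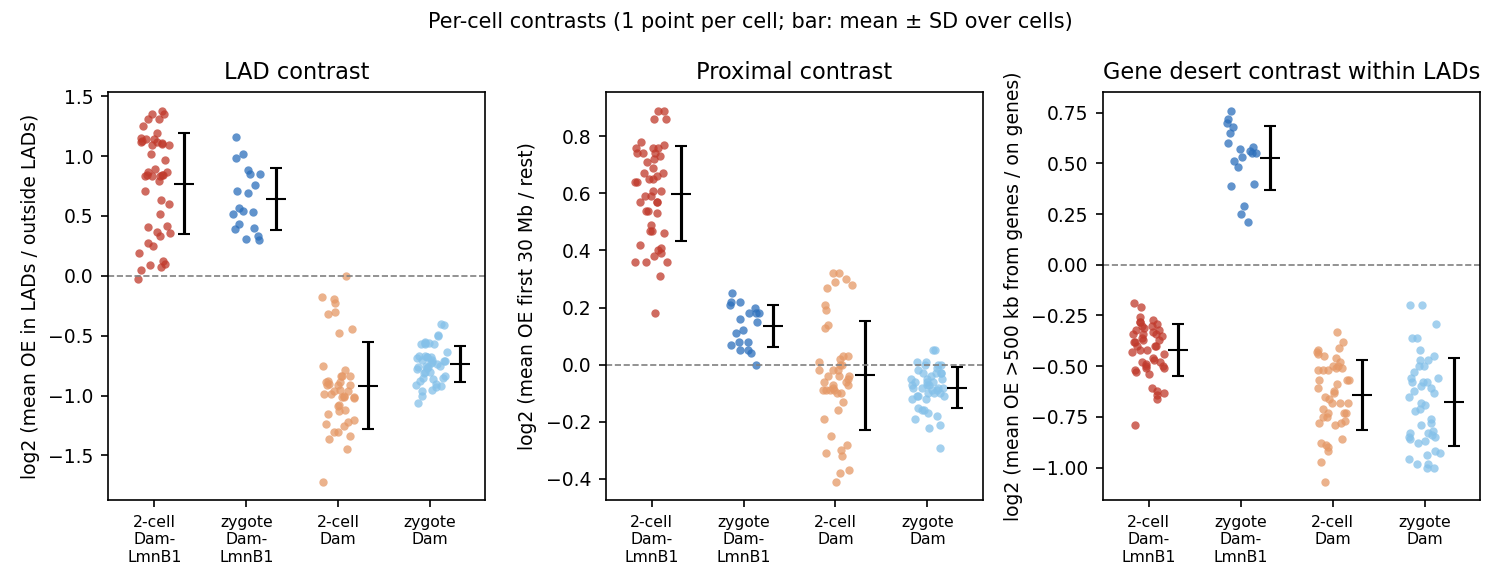
Per-cell contrasts on a log2 scale for 2-cell and zygote cells with Dam-lamin B1 and with Dam. Each point is 1 cell and the bars give the mean and SD over cells. In the gene desert panel all 47 blastomeres lie below 0 and all 19 zygotes above it, while the LAD contrasts of the same cells overlap.

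Contacts at the 2-cell stage were concentrated near the centromere. Mouse autosomes have their centromere at one end, so the first megabases of each chromosome are the centromere-proximal ones. The proximal contrast, the log2 ratio of mean OE in the first 30 Mb to mean OE in the rest, was 0.60 ± 0.17 in blastomeres, from 0.18 to 0.89, and 0.13 ± 0.07 in zygotes, from 0.00 to 0.25. Of the 47 blastomeres, 46 lay above the highest zygote. The difference was 0.46, and 0.54 without the 13 blastomeres, against 0.04 between the Dam groups. It was present in LADs, at 0.57 in blastomeres and 0.14 in zygotes, and outside LADs, at 0.40 in blastomeres and 0.02 in zygotes.

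In the first 10 Mb mean OE was 1.46 ± 0.140 in blastomeres and 0.973 ± 0.0726 in zygotes. There 29.4% of 1301 bins were at least 2-fold higher at the 2-cell stage and 3.23% lower. Between 60 and 100 Mb mean OE was 0.838 in blastomeres and 1.03 in zygotes, with 7.11% of bins higher and 22.5% lower. The first 30 Mb hold 21.3% of all bins, 40.5% of the gained bins and 11.6% of the lost ones. Gained bins were thus more common there than bins in general, and lost bins less common.

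Every autosome took part. The ratio of OE in the first 30 Mb to OE in the rest was larger at the 2-cell stage than in zygotes on 19 of 19 chromosomes, against 13 of 19 with Dam. Chromosome 14 had a ratio of 1.62 in blastomeres and 0.695 in zygotes, chromosome 10 had 1.65 in blastomeres and 0.940 in zygotes, and chromosome 12 had 1.40 in blastomeres and 0.796 in zygotes. Chromosome 7 stayed nearest to even, at 1.02 in blastomeres and 0.848 in zygotes. The proximal preference was above 1 on 19 of 19 chromosomes at the 2-cell stage and on 13 of 19 in zygotes. At the 8-cell stage the ratio was below the 2-cell value on 18 of 19 chromosomes.

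**Figure D3:**
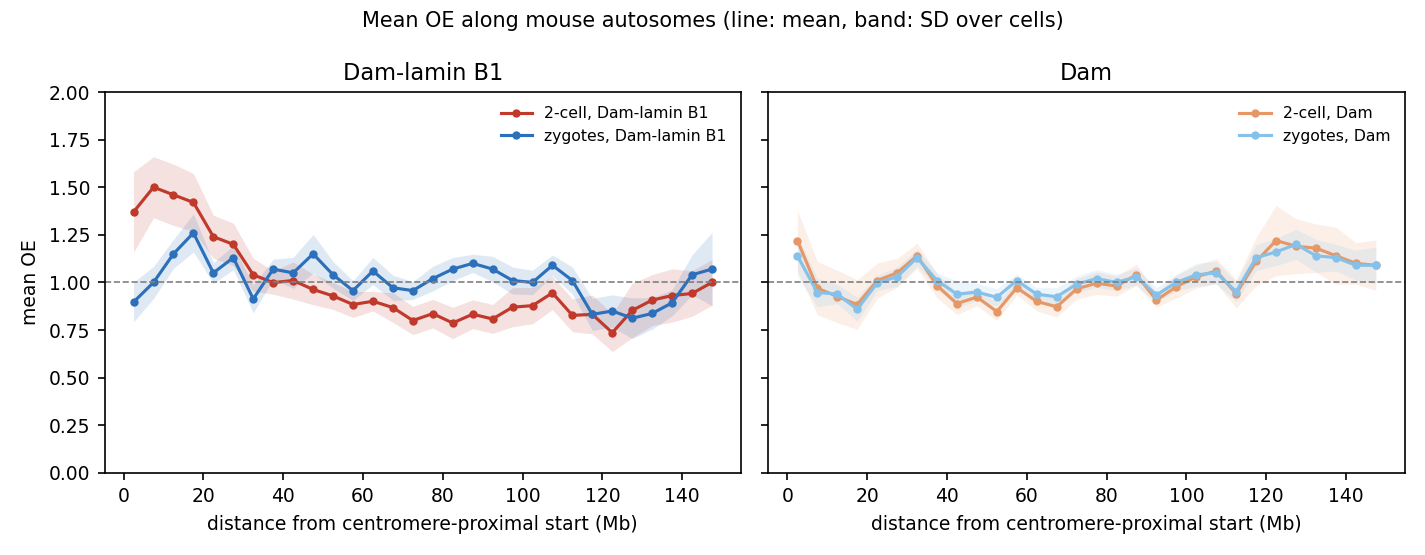
Mean OE (vertical axis) in steps of 5 Mb along the autosomes from the centromere-proximal start (horizontal axis, Mb), with bands of 1 SD over cells. With Dam-lamin B1 (left) the 2-cell curve lies above the zygote curve in the first 30 Mb and below it between 60 and 100 Mb. With Dam (right) the curves of both stages run together.

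Zygotes held long unbroken contact domains, and blastomeres many shorter ones. A domain was a run of at least 3 bins whose mean OE over the group, smoothed over 3 bins, was at least 1. Blastomeres had 962 domains covering 960 Mb, with a median length of 0.7 Mb and a longest of 6.90 Mb. Zygotes had 660 domains covering 898 Mb, with a median of 0.600 Mb and a longest of 11.8 Mb. The medians were close, and without smoothing their order turned, to 0.5 Mb in blastomeres and 0.6 Mb in zygotes. The difference lay in the long domains: 45 domains in blastomeres and 88 in zygotes reached 3 Mb, holding 19.5% of the domain length in blastomeres, or 18.9% without the 13 that stand apart, and 47.4% in zygotes. With Dam the shares were 31.5% in blastomeres and 40.4% in zygotes. Domains of both stages overlapped over 4302 bins, which is 44.8% of the 2-cell domains and 47.9% of the zygote domains. The 2-cell domains held 39.9% of all bins and the zygote domains 37.4%, so the overlap was not far above these shares. With Dam the overlap was 92.7% of the 2-cell and 79.2% of the zygote domains, which held 39.9% and 46.6% of all bins.

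Beyond the first 30 Mb, most bins of the 88 long zygote domains lay outside 2-cell domains. Over their 4258 bins mean OE was 1.02 in blastomeres and 1.64 in zygotes, 39.1% of bins were at least 2-fold lower at the 2-cell stage and 1.39% higher. Since these domains were picked for a high zygote OE, part of that gap is built into the choice. In the first 30 Mb 78.8% of their bins were also in a 2-cell domain, and 30.4% in the rest of the chromosome. Over both parts it was 43.6%, against 39.9% of all bins. Of the bins in 2-cell domains, 36.6% lay in the first 30 Mb, which hold 21.3% of all bins. Any bin there was thus more often in a 2-cell domain, and the shares of 78.8% and 30.4% partly reflect this. The 45 long 2-cell domains lay almost wholly near the centromere, with 88.0% of their 1868 bins in the first 30 Mb. Mean OE over them was 1.74 in blastomeres and 1.16 in zygotes. These domains were picked for a high 2-cell OE, so part of that gap is built into the choice as well. The same holds for the single domains of either stage named below.

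The longest zygote domain, chr15:13200001-25000000, spans the cadherin genes Cdh9, Cdh10, Cdh12 and Cdh18, which encode cell adhesion proteins used in neural tissue. It lies in the first 30 Mb, and 83.9% of its bins were in 2-cell domains, near the 78.8% of all long zygote domains there. Its mean OE was 1.37 in blastomeres and 1.80 in zygotes. The next, chr5:78000001-88500000, was mostly lost. It holds Adgrl3, a latrophilin adhesion receptor, Epha5, an ephrin receptor, the Tmprss11 serine proteases and the Ugt2 glucuronosyltransferases. Its mean OE was 0.750 in blastomeres, from 0.282 to 1.23, and 1.78 in zygotes, from 1.2 to 2.27, and 14.3% of its bins were in 2-cell domains. Only the highest blastomeres reached the lowest zygotes.

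On the same chromosome, chr5:54100001-63000000, the desert around the protocadherin gene Pcdh7, had a mean OE of 0.743 in blastomeres and 1.83 in zygotes. Its highest blastomere, at 1.21, lay below its lowest zygote, at 1.33. The region of the synaptic phosphatase gene Ptprd, chr4:74500001-81200000, had 0.687 in blastomeres and 1.54 in zygotes, and 5.97% of its bins stayed in a domain. The region of the cadherin genes Cdh8 and Cdh11, chr8:96400001-103500000, had 0.719 in blastomeres and 1.55 in zygotes. These 3 hold between 2 and 4 named coding genes each.

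Gene number varied among the long zygote domains, with 43 named coding genes in chr5:78000001-88500000 and 69 in chr17:37200001-42700000. The longest 2-cell domain, chr11:6700001-13600000, holds 17 named coding genes. Among them are Grb10, an imprinted gene for a growth-restraining adaptor, and Ikzf1, a transcription factor of lymphocytes. Its mean OE was 1.79 in blastomeres and 1.21 in zygotes. The domain at the start of chromosome 4, chr4:3800001-8600000, has Mos, the kinase that holds the egg in meiotic arrest, and Cyp7a1, the rate-limiting enzyme of bile acid synthesis. It had 1.86 in blastomeres and 0.869 in zygotes. A long domain outside the first 30 Mb was chr1:185000001-190900000, with Prox1, a regulator of lymphatic and liver development, and Esrrg, an orphan nuclear receptor. Its mean OE was 1.84 in blastomeres, from 0.904 to 3.45, and 0.761 in zygotes, from 0.392 to 1.24, and at the 8-cell stage it was 1.88.

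**Figure D4:**
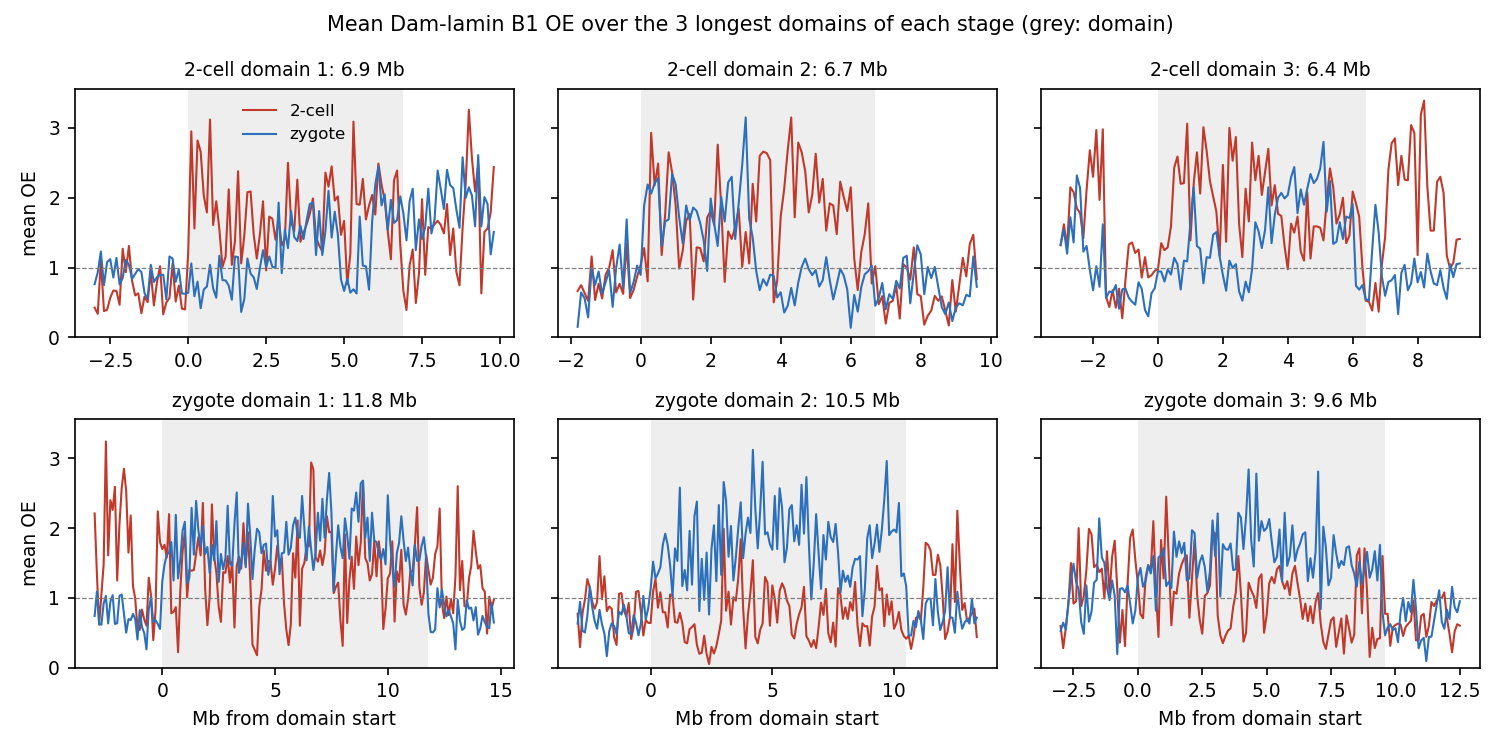
Mean Dam-lamin B1 OE (vertical axis) by distance from the domain start (Mb) over the 3 longest domains of 2-cell blastomeres (upper row) and of zygotes (lower row), with the domain in grey, blastomeres in red and zygotes in blue. Over the second zygote domain, of 10.5 Mb, the 2-cell line lies mostly below 1, with a mean of 0.750 against 1.78 in zygotes.

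At single bins the largest gains and losses set most blastomeres apart from most zygotes. The 10 gained and 10 lost bins described here are those with the largest difference in contact frequency whose neighbours on both sides moved the same way. They were picked for that difference, so their values are a description, and the intervals given are exact binomial 95% intervals for counting error alone, with each cell taken as independent. The first gained bin, chr6:135700001-135800000, overlaps Grin2b, which encodes a subunit of the NMDA glutamate receptor. Its OE ranged from 0 to 5.94 with a median of 2.31 in blastomeres, and from 0 to 1.07 with a median of 0 in zygotes. It was in contact in 42 of 47 blastomeres (89.4%, 76.9% to 96.5%) and in 1 of 19 zygotes (5.26%, 0.133% to 26.0%). With Dam it was in contact in 25 of 45 blastomeres and 22 of 46 zygotes.

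The bin chr2:161400001-161500000 lies 22 kb from Ptprt, a receptor tyrosine phosphatase. Its OE ranged from 0.670 to 10.3 with a median of 3.06 in blastomeres, and from 0 to 2.66 with a median of 0 in zygotes, and it was in contact in 46 of 47 blastomeres and 4 of 19 zygotes. At chr4:6100001-6200000, on the ubiquitin-pathway cofactor gene Ubxn2b and inside the long domain at the start of chromosome 4, contact was seen in 44 of 47 blastomeres and 3 of 19 zygotes. The bin chr4:82700001-82800000, which overlaps the palmitoyltransferase gene Zdhhc21 and is 82 kb from Cer1, a secreted Nodal antagonist of the early embryo, was in contact in 36 of 47 blastomeres and 0 of 19 zygotes (0 to 17.6%). The other 6 gained bins were in contact in 37 to 42 of 47 blastomeres and in 1 to 3 of 19 zygotes. Of all 10, 8 lay within 100 kb of a coding gene and 5 were in the first 30 Mb.

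The lost bins mostly lay far from genes. The first, chr14:81100001-81200000, is 1077 kb from Olfm4, the nearest coding gene. Its OE ranged from 0 to 1.24 with a median of 0 in blastomeres, and from 0.495 to 4.94 with a median of 1.63 in zygotes. It was in contact in 1 of 47 blastomeres (2.13%, 0.0539% to 11.3%) and in 16 of 19 zygotes (84.2%, 60.4% to 96.6%). The bin chr1:145100001-145200000, 325 kb from Rgs18, a regulator of G-protein signalling, was in contact in 9 of 47 blastomeres and in all 19 zygotes. Its OE ranged from 0 to 2.14 with a median of 0.298 in blastomeres, and from 1.16 to 6.46 with a median of 2.95 in zygotes.

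Only 2 of the 10 lost bins overlapped a coding gene. One was chr12:61800001-61900000 on Lrfn5, a synaptic adhesion gene, with contact in 2 of 47 blastomeres and 16 of 19 zygotes. The other was chr16:74300001-74400000 on Robo2, an axon guidance receptor, with contact in 4 of 47 blastomeres and 16 of 19 zygotes. The bin chr2:40300001-40400000, 195 kb from the very long gene Lrp1b, was in contact in 3 of 47 blastomeres and 16 of 19 zygotes. The median distance of the 10 lost bins to a coding gene was 398.5 kb, against 10.5 kb for the gained ones, and none of the lost bins lay in the first 30 Mb. With Dam the 10 lost bins were in contact in 2 to 17 of 45 blastomeres and in 3 to 13 of 46 zygotes, few at both stages.

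By contrast, mean OE over LADs as a whole was close at both stages. How it stood against bins outside LADs depended on the 13 blastomeres that stand apart. The LAD contrast, the log2 ratio of mean OE in bins of both deposited LAD lists to mean OE in bins of neither, was 0.77 ± 0.42 in blastomeres, from -0.03 to 1.38, and 0.64 ± 0.26 in zygotes, from 0.30 to 1.16. The difference of 0.13 was below the SD of either group, and the groups overlapped over most of their range. Without the 13 blastomeres the LAD contrast was 0.98 ± 0.28 in the other 34, a difference of 0.34 that was larger than the SD of either group. Mean OE inside LADs was 1.19 ± 0.0949 in blastomeres and 1.2 ± 0.0615 in zygotes, and outside LADs 0.711 ± 0.157 in blastomeres and 0.774 ± 0.0993 in zygotes. In the 34 blastomeres it was 1.23 ± 0.0681 inside and 0.631 ± 0.0936 outside. Mean OE over LADs as a whole was thus close at both stages, while bins within LADs differed as described above.

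LAD borders were on average steeper at the 2-cell stage, and by how much depended on the 13 blastomeres that stand apart. Of 80 borders, 77 had a bin with a value at each 100 kb step inside and 65 at each step outside. Inside and outside were thus not measured at all the same borders, and the effect of this on the step was not tested. The log2 ratio of mean OE in the 500 kb inside to that in the 500 kb outside was 0.61 ± 0.39 in blastomeres and 0.33 ± 0.26 in zygotes. The difference was 0.28, about the SD of the zygotes, with 8 of 47 blastomeres above the highest zygote. Without the 13 blastomeres the log2 ratio was 0.80 ± 0.27 in the remaining 34, a difference of 0.47 that was larger than the SD of either group. In the first 100 kb inside the border mean OE was 0.983 in blastomeres and 0.870 in zygotes, and at 200 to 300 kb inside it was 1.23 in blastomeres and 0.996 in zygotes.

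Blastomeres resembled one another more than zygotes did. Over all pairs, Pearson's r across bins was 0.228 ± 0.0877 between blastomeres and 0.146 ± 0.0359 between zygotes. Without the 13 blastomeres it was 0.251 between blastomeres. The highest r was 0.526 between blastomeres and 0.256 between zygotes. Counts per bin were few and limit r, so these values cannot show whether any 2 cells had the same profile. A blastomere correlated with the mean of the other blastomeres at 0.460 ± 0.0831 and with the mean zygote profile at 0.120 ± 0.0310. A zygote correlated with the mean of the other zygotes at 0.329 ± 0.0568 and with the mean 2-cell profile at 0.110 ± 0.0325. Blastomeres of the same embryo may be among the pairs, and depth enters these values. In 1 Mb windows mean r between pairs was 0.411 in blastomeres and 0.384 in zygotes, a difference of 0.027.

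The gained and lost contacts also differed in how they stood at other stages. Gained bins were in contact in a median of 41.1% of oocytes, 26.3% of zygotes, 68.1% of blastomeres of the 2-cell stage and 48.8% of cells of 8-cell embryos. Lost bins were in contact in a median of 23.2% of oocytes, 63.2% of zygotes, 23.4% of 2-cell blastomeres and 29.3% of cells of 8-cell embryos. In ES cells the median was 50.0% for both. Over all bins the median was 35.7% of oocytes, 36.6% of cells of 8-cell embryos and 40.0% of ES cells. Across 24022 bins the mean 2-cell profile correlated at r = 0.347 with that of oocytes, 0.458 with that of 8-cell embryos and 0.325 with that of ES cells. The mean zygote profile correlated with them at r = 0.178, 0.256 and 0.432. The rule for gained and lost bins fixed the zygote and 2-cell medians but not the others.

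Genes were assigned to the bin of their midpoint and grouped in 22 lists. Over all bins the median log2 ratio of mean OE, 2-cell over zygote, was -0.08, at 0.24 in the first 30 Mb and -0.18 in the rest, and the shares of bins at least 2-fold higher and lower were 11.8% and 16.1%. Promoters of 3 genes are shown for orientation, because the bins around them were on opposite sides. Alb (albumin) and Eomes (a trophectoderm regulator) lie in bins with more contact at the 2-cell stage, and Prl3d1 (a placental lactogen) in a bin with less. The medians of the liver and trophectoderm lists were below 0, at -0.68 and -0.19, so the bins of Alb and Eomes do not stand for their lists. The sequences are the 250 bases before the gene's start from RefSeq, build GRCm38.p6 (mm10), plus strand. The Dam target GATC, which reads the same on both strands, is in capitals. Of 32851 promoters in that annotation, 13763 (41.9%) hold at least 1 GATC in this window, so single promoters carry few sites that DamID can read and values are given per 100 kb.
Alb, chr5:90460620-90460869: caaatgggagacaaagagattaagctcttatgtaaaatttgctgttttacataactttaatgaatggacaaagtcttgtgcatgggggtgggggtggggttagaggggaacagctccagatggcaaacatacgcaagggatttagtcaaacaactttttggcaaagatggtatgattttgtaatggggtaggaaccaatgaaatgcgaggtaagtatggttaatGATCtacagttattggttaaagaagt
Eomes, chr9:118477939-118478188: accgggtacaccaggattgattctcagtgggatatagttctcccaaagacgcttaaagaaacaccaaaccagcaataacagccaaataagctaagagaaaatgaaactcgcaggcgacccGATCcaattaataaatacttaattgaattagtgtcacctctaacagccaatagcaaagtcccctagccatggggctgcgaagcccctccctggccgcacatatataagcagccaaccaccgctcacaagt
Prl3d1, chr13:27093939-27094188: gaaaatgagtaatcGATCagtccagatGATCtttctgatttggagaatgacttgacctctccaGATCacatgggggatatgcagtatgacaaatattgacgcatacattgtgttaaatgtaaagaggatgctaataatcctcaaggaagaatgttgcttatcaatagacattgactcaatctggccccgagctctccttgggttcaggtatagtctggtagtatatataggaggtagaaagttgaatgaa

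The prolactin family, placental and pituitary hormones encoded on chromosome 13, was lower almost throughout. Its bins lie in 2 places: Prl2c3 at chr13:12700001-12800000 and Prl2c2 at chr13:13000001-13100000 lie apart from the main cluster, which holds the other named bins, chr13:27000001-28200000. Of its 14 bins 12 were at least 2-fold lower at the 2-cell stage and none higher, with a median log2 ratio of -1.51. Mean OE over the 14 bins was 0.451 ± 0.270 in blastomeres, from 0.0767 to 1.51, and 1.41 ± 0.7 in zygotes, from 0.267 to 2.86. The ranges overlapped, but the 2-cell median of 0.448 lay well below the zygote median of 1.15. The bin of Prl and Prl3d1, whose promoter is printed above, had an OE from 0 to 3.96 with a median of 0 in blastomeres, and from 0 to 3.58 with a median of 1.1 in zygotes. It was in contact in 5 of 47 blastomeres (10.6%, 3.55% to 23.1%) and 11 of 19 zygotes (57.9%, 33.5% to 79.7%). All 14 bins lie in the first 30 Mb, where bins in general were higher at the 2-cell stage. With Dam the median log2 ratio of the 14 bins was -0.18 and none of them passed 2-fold.

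Olfactory receptor genes, which are expressed mainly in sensory neurons of the nose, were lower as well. Of 337 bins, 109 were at least 2-fold lower and 9 higher, with a median of -0.66. Mean OE was 0.849 ± 0.116 in blastomeres, from 0.565 to 1.12, and 1.36 ± 0.167 in zygotes, from 1.1 to 1.69, so the groups barely touched. The clusters differed: on chromosome 2, 44 of 73 bins were lower with a median of -1.29, and on chromosome 6, 3 of 11 were lower with a median of -0.10. The bins with the largest fall held Olfr1228 and its neighbours, in contact in 5 of 47 blastomeres and 13 of 19 zygotes, and Olfr1491 and its neighbours, in 2 of 47 blastomeres and 12 of 19 zygotes. On the other side, the bin of Olfr31 was in contact in 40 of 47 blastomeres and 9 of 19 zygotes.

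Other tandem families were mixed. Of 172 bins of vomeronasal receptors, which detect pheromones, 17 were at least 2-fold higher and 25 lower, with a median of -0.21. Their 3 largest ratios came from bins at 0 in all 19 zygotes, of which the bin of Vmn1r155 and Vmn1r257 was in contact in 3 of 47 blastomeres, so no fold is given. Cytochrome P450 families 2 and 3, which metabolise steroids and foreign compounds, had 10 of 44 bins lower and none higher, with a median of 0.83 over 11 bins in the first 30 Mb and -0.63 over 33 bins in the rest. Pramel and Oog genes, active in oocytes and early embryos, had 9 of 33 bins lower and none higher, with a median of -0.58. The bins of Zfp973 and Pramel37 were at 0 in all 47 blastomeres and had a value in 1 zygote each, 164 and 40.0. Defensins had 1 of 20 bins higher and 3 lower, keratins 3 of 34 higher and 5 lower, and clustered protocadherins none of 8 higher and 2 lower.

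The liver genes of chromosome 5 had a median of -0.68 over 10 bins, of which 1 was at least 2-fold higher and 2 lower. Bins a few megabases apart went opposite ways. The Ugt2 glucuronosyltransferases lie in the long zygote domain that was mostly lost. The bin of Ugt2b35 and Ugt2b36 had an OE from 0 to 1.43 with a median of 0.291 in blastomeres, and from 0 to 5.11 with a median of 1.93 in zygotes, and was in contact in 2 of 47 blastomeres and 15 of 19 zygotes. A few megabases on, the bin of Alb and Afp, the serum proteins of adult and fetal liver, was higher. It had an OE from 0 to 6.40 with a median of 1.62 in blastomeres, and from 0 to 3.01 with a median of 0.578 in zygotes, and was in contact in 33 of 47 blastomeres (70.2%, 55.1% to 82.7%) and 5 of 19 zygotes (26.3%, 9.15% to 51.2%). With Dam its log2 ratio was -0.28.

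Genes of the lineages that form later were tested as lists too. Primitive endoderm genes had 4 of 10 bins at least 2-fold higher and 1 lower, with a median of 0.50. The median was 0.94 over 4 bins in the first 30 Mb and -0.24 over 6 bins in the rest. The higher ones were the bins of Sox17, a transcription factor of endoderm, in contact in 44 of 47 blastomeres and 14 of 19 zygotes, of Dab2, an endocytic adaptor, in 13 of 47 blastomeres and 0 of 19 zygotes, of Foxa2, in 23 of 47 blastomeres and 5 of 19 zygotes, and of Afp, counted above. The lower one was Pdgfra, a growth factor receptor, in 4 of 47 blastomeres and 10 of 19 zygotes. Of the 9 trophectoderm bins, with a median of -0.19, only that of Eomes was past 2-fold. Its OE ranged from 0 to 4.64 with a median of 0.735 in blastomeres, and from 0 to 0.670 with a median of 0.306 in zygotes, and it was in contact in 18 of 47 blastomeres (38.3%, 24.5% to 53.6%) and 0 of 19 zygotes (0 to 17.6%). Of 16 pluripotency bins only that of Lin28a, an RNA-binding protein, was past 2-fold, and lower.

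Few bins passed 2-fold among genes of the transition itself. Of 31 bins with genes switched on at the 2-cell stage, 1 was higher and 3 lower, with a median of -0.19. Eif4e3, a cap-binding protein, was in contact in 29 of 47 blastomeres and 3 of 19 zygotes. Obox1, a homeobox gene, was in contact in 8 of 47 blastomeres and 10 of 19 zygotes. The counts were 8 of 47 blastomeres and 12 of 19 zygotes for Tdpoz3, and 2 of 47 blastomeres and 9 of 19 zygotes for the ubiquitin protease gene Usp17ld. Of 18 bins of oocyte and maternal-effect genes only that of Zp2, a protein of the egg coat, was past 2-fold, in contact in 42 of 47 blastomeres and 9 of 19 zygotes. Of 17 bins with lamina proteins and their tethers, Syne1 was higher, in contact in 38 of 47 blastomeres and 11 of 19 zygotes. Sun2 was lower, in 8 of 47 blastomeres and 10 of 19 zygotes, and so was Syne2, in 3 of 47 blastomeres and 5 of 19 zygotes. These proteins link the nucleus to the cytoskeleton.

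Long neuronal genes had 2 of 20 bins higher and 3 lower, with a median of -0.53. Opcml, a neural adhesion gene in the first 30 Mb of chromosome 9, was in contact in 28 of 47 blastomeres and 2 of 19 zygotes, and Pcdh9, a protocadherin gene on chromosome 14, in 5 of 47 blastomeres and 16 of 19 zygotes. Zfp zinc finger genes had 13 of 265 bins higher and 36 lower, ribosomal protein genes 1 of 82 higher and 7 lower, and canonical histone genes 1 of 8 higher and none lower. Hox genes, lysine demethylase genes and housekeeping genes had no bin past 2-fold among 9, 8 and 10. The medians of many lists depended on which blastomeres were used. Without the 13 that stand apart the median over all bins was -0.16 in place of -0.08, and the median was -0.42 in place of -0.16 for Zfp genes, -0.42 in place of -0.14 for ribosomal protein genes, -0.60 in place of -0.27 for lamina genes, and -0.88 in place of -0.49 for clustered protocadherins. It changed sign for pluripotency genes, at -0.30 in place of 0.03, for oocyte genes, at -0.20 in place of 0.25, for housekeeping genes, at -0.11 in place of 0.15, and for histone genes, at -0.34 in place of 0.06. The medians of olfactory receptors (-0.73), prolactins (-1.79) and primitive endoderm genes (0.48) kept their direction without them.

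With 19 blastomeres and 19 zygotes thinned to the same depth, a setting whose blastomeres carry the numbers 4 to 22 and so include none of the 13, the shifts were as large or larger for most of these lists. The median over all bins was then -0.21. The list median was -0.57 for pluripotency genes, -0.61 for housekeeping genes, -0.64 for histone genes, -0.22 for oocyte genes and -0.18 for defensins, all 5 above 0 with all cells. It was -0.73 in place of -0.19 for genes switched on at the 2-cell stage, -0.94 in place of -0.27 for lamina genes, -0.66 in place of -0.35 for lysine demethylase genes and -0.96 in place of -0.58 for Pramel and Oog genes. Olfactory receptors, at -0.89, prolactins, at -1.80, and primitive endoderm genes, at 0.57, kept their direction here too.

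**Figure D5:**
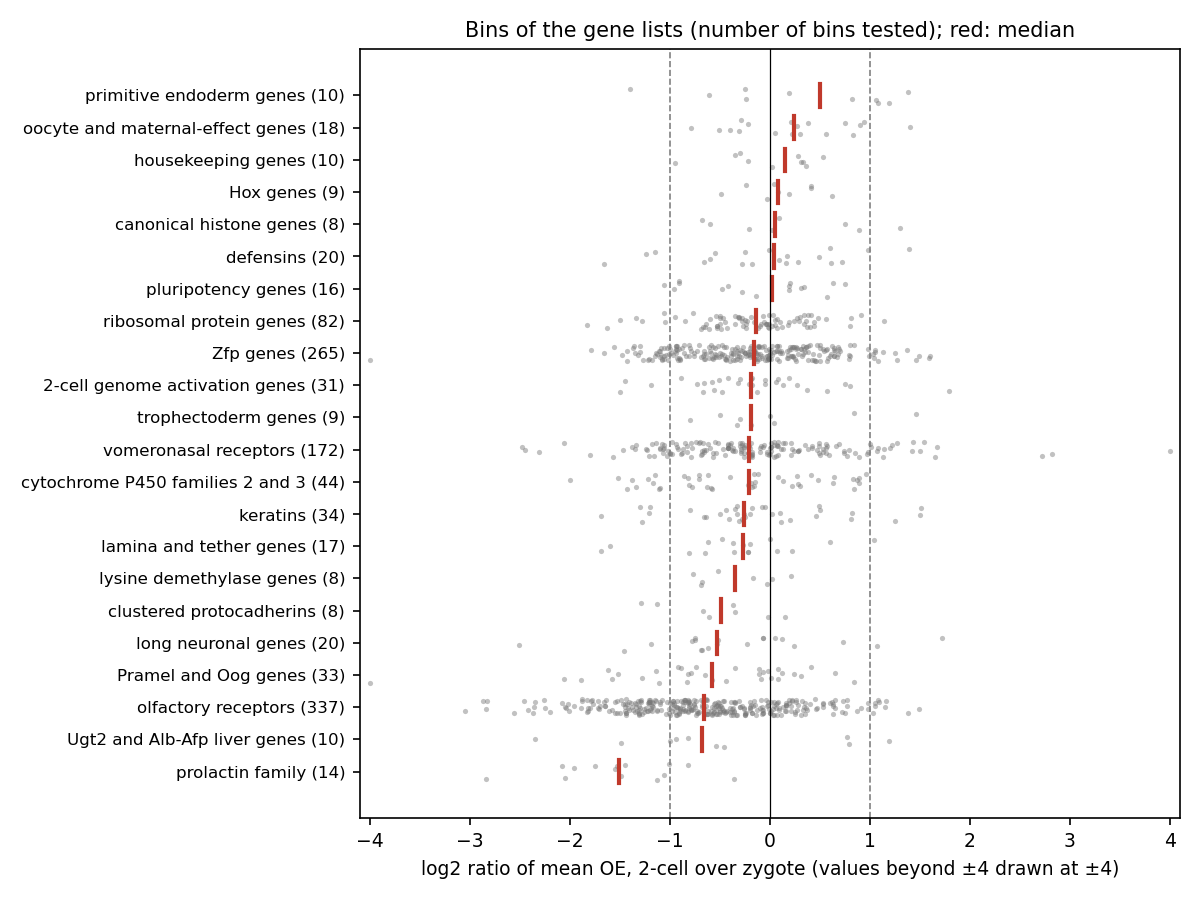
Log2 ratio of mean OE, 2-cell over zygote (horizontal axis), of every bin of the 22 gene lists, with the number of bins tested in brackets, the median in red and dashed lines at 2-fold. The prolactin bins lie left of 0 with a median of -1.51, and the primitive endoderm bins have the highest median, 0.50.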

How the data were processed

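The authors deposited, for each single cell, the ratio OE, observed over expected reads, per 100 kb autosomal bin, and lists of LAD coordinates for ICM and TE. The submitters' processing notes name cutadapt, BWA 0.7.12 and mm10. The making of the expected number and the calling of LADs are not described in the sources used here. The table's other 248 columns were not used here.

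Within a bin, OE values are whole multiples of 1 step. The step was found in 23853 bins, all values came out whole within a tolerance of 0.02, and their sums are the depths given. If a step stands for more than 1 read, depths are underestimated. No molecular identifiers are named, so intervals cover counting error only.

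Bins without a value (617) were left out. Ratios of stages are log2 (mean OE + 0.1), over bins where the mean OE of both groups averaged at least 0.25, called at 2-fold. LAD bins were covered at least 50% by both lists. Coding genes and promoters came from RefSeq GRCm38.p6. Values were computed with Python 3.11.15, numpy 2.4.6, pandas 2.3.3 and scipy 1.17.1, and the steps were tested on simulated data. No test was made between stages, since the blastomeres' embryos are not known.

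The members, gene lists and measures were chosen with earlier results of these data known, and the proximal contrast, the gene desert contrast and the share of long domains were added after seeing these values. Named were the 10 bins with the largest rise and the 10 with the largest fall in contact frequency whose neighbours moved alike, at most 1 per Mb, every list member past 2-fold in lists of at most 40 genes, and up to 3 bins at each end of longer lists, of which the text gives examples. Other pseudocounts, filters, bin sizes, thresholds, equal depth and equal cell numbers were tried.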

Additional observations from a re-analysis of the deposited data

Results flagged for a closer look

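The gene desert contrast within LADs went one way in every zygote and the other way in every 2-cell blastomere with Dam-lamin B1, which singled it out. Its mean was -0.42 in the 47 blastomeres, all below 0, and 0.53 in the 19 zygotes, all above 0, a difference of -0.95 on the log2 scale. The difference was not tested, because the embryos of the blastomeres are not known. With Dam it was below 0 in all 45 blastomeres and in all 46 zygotes. Among cells of other stages with Dam-lamin B1, 19 of 56 oocytes, 1 of 41 cells of 8-cell embryos and 4 of 10 ES cells were above 0.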

How the results depend on the processing

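The differences in LAD contrast, border step, correlation between cells, proximal contrast and gene desert contrast kept their direction under the alternatives run. The order of gained and lost bins turned with equal cells and reads, at 13.6% and 9.53%, and with contact at an OE of 2, and the order of the median domain lengths turned without smoothing, at 0.5 Mb in blastomeres and 0.6 Mb in zygotes, and with a threshold of 1.2, at 0.6 Mb in blastomeres and 0.7 Mb in zygotes. Of the 22 list medians 5 changed sign with equal cells and reads and 4 without the 13 blastomeres. Of the alternatives to the values that answer the comparison, 45 left the value within its limits and 18 moved it, and for other values 64 and 24. With a pseudocount of 0.5, 5.17% of bins were at least 2-fold higher and 7.38% lower, and 1 list in place of 5 had a median of -0.5 or lower. In 1 Mb windows 5.06% were higher and 8.02% lower, and the difference in mean r between pairs of cells was 0.027. With medians over cells 25.3% were lower. With 19 blastomeres and 19 zygotes of 28425 counts each, 24.8% were lower and 12 lists had a median of -0.5 or lower. When contact needed an OE of 2 or more, 3.06% of bins were gained and 1.84% lost. Without smoothing, domains of at least 3 Mb held 3.68% of the domain length in blastomeres and 26.7% in zygotes, and with a threshold of 1.2 they held 10.3% in blastomeres. The difference in proximal contrast was 0.38 in bins of neither LAD list and 0.67 with the first 10 Mb as limit. The difference in gene desert contrast was -1.15 with bins over 1 Mb from genes and -0.76 in the first 30 Mb. The cause of these shifts was not tested. Leaving out cells under 100000 counts was not run, since it leaves 1 blastomere and 2 zygotes. No paired analysis was possible because a replicate number names a single cell, and a blastomere and a zygote of the same number come from different embryos. At the depth of these cells a median of 32.7% of bins in a blastomere and 30.1% in a zygote hold no count, so a single cell's 0 at one bin does not show that contact was absent there.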
